A study of Mus musculus with 7 samples.

Results

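Iron uptake, storage and export in mouse bone marrow were followed through 8 genes: Tfrc, Slc11a1, Slc11a2, Steap4, Fth1, Ftl1, Slc40a1 and Hmox1. They were chosen by symbol and not by a rule on measured values, but with earlier results of these data known. All 8 are among the 31053 genes listed for each of 7 single-cell RNA-seq libraries. The cells were total marrow from the spine, hips and hind limb bones of mice, taken after lysis of red cells, tagged with hashtag antibodies, mixed into 4 pools (WBM_1 to WBM_4) and run on a 10x Genomics droplet system that counts the 3′ ends of transcripts as unique molecular identifiers (UMIs). The hashtags name 20 samples, and what was compared here are the marrow cell types and the hashtag groups. By prefix the groups are WTY (3 samples), WTO (4), HRY (3) and HRO (6). The series text gives 2 further samples, HRO.5 and HRO.6, as chronic with mutated TET2, and these form a group of their own called chronic. HR.7 and HR.AE carry no group prefix and entered no group. What the prefixes stand for, and the strain, age, genotype and treatment of the mice, are not stated in the sources used here, so the prefixes serve only as names. Whether each hashtag is a different mouse is also not stated, and the p-values therefore reflect only how far these samples spread, which may be technical.

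Most cells take up iron as transferrin bound to the transferrin receptor. The iron is reduced in the endosome and moved into the cytosol by divalent metal transporters, kept safe inside a shell of ferritin heavy and light chains, and let out of the cell by ferroportin. Developing red cells use most of it for heme, and marrow macrophages return it by engulfing old red cells and opening heme with heme oxygenase. Neutrophils and macrophages also withhold iron from microbes. When a cell is short of iron, iron regulatory proteins bind hairpins called iron-responsive elements, which holds back translation when the hairpin lies in the 5′ untranslated region (UTR) and steadies the transcript when it lies in the 3′ UTR.

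The hairpins are shown because the protein of a member that carries one need not follow the transcript level measured here. The UTRs of all annotated mouse transcripts (GENCODE M21, GRCm38) were searched on the sense strand for a loop CAGTGN or CAGAGN of 6 bases, flanked on each side by 5 bases that pair with each other (G-T pairs allowed) and preceded by an unpaired C before the 5′ arm. Such a sequence was found in 4 of the 8 members. It was found in the 5′ UTR of 69 of 20597 genes (0.335%) and in the 3′ UTR of 250 of 20979 genes (1.19%). Each is printed 5′ to 3′ with 5 flanking bases and the loop in capitals. The 5 Tfrc sequences lie in the 3′ UTR in 1 of 2 transcripts, at chr16:32631161-32631187, 32631220-32631246, 32631599-32631625, 32631664-32631690 and 32631711-32631737 on the plus strand. The Fth1 sequence is in the 5′ UTR of 4 of 5 transcripts (chr19:9982733-9982759, plus strand), that of Ftl1 in 1 of 2 (chr7:45459780-45459806, minus strand) and that of Slc40a1 in 1 of 4 (chr1:45925466-45925492, minus strand).
Tfrc site 1: tttatcagtgaCAGAGTtcactataaa
Tfrc site 2: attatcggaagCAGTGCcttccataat
Tfrc site 3: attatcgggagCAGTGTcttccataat
Tfrc site 4: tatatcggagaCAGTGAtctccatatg
Tfrc site 5: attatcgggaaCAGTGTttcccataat
Fth1: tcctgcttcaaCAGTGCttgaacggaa
Ftl1: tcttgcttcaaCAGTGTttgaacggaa
Slc40a1: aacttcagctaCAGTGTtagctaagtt
These letters were not found in the UTRs of the other members, which says nothing of other forms of the hairpin.

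The libraries held 25343305 to 95553827 UMIs, and 43062 cells passed the filters with 1 hashtag. Cell types were set by gates on marker genes, none of them an iron gene. The gates gave 6605 monocytes, 12035 immature and 5916 mature neutrophils, 1108 erythroid cells and 355 macrophages, the last 0.824% of kept cells. Gated macrophages carried a mean of 4.66 positive macrophage gate markers, 1.99 positive macrophage markers that were not used to gate, and 2.28 monocyte gate markers. Monocyte markers not used to gate averaged 3.21 positive in them and 3.04 in gated monocytes, so the macrophage gate shades into monocytes. Counts were summed for each hashtag sample and gate with at least 20 cells, and levels are given as CPM, the counts of a gene scaled to a common total of UMIs in that sum. All of the 19 samples other than HR.AE had monocytes and neutrophils, 10 had erythroid cells and 4 had macrophages (HRO.7 177 cells, HRO.8 39, HR.7 27, HRO.9 24). HR.7 held 637 of the erythroid cells. The macrophage sum of HR.7 stood apart: it held globin transcripts at 8679 CPM against 26.4 to 51.0 in the other 3, erythroid gate markers at 293 CPM against 20.8 to 34.0, and macrophage gate markers at 4386 CPM against 10371 to 12230. The libraries WBM_3a and WBM_3b shared 2078 barcodes, where no other pair shared more than 51, and the copy with fewer UMIs was removed.

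Among the gates compared, the one with the highest mean level differed between the 8 genes. Erythroid cells had the highest uptake transcripts of the transferrin route (Tfrc and Slc11a2). Macrophages had the highest ferritin, Hmox1 and Slc11a1, and mature neutrophils the highest Slc40a1 and Steap4. Monocytes had none of the 8 at its highest mean. The macrophage means rest on 4 sums: HRO.7, HRO.8 and HRO.9, all of pool WBM_2, and HR.7, which is in no group. No WTY, WTO, HRY or chronic sample had a macrophage sum, so these levels cover HRO and HR.7 only. Not every macrophage sum was highest: HR.7 Fth1 (5408 CPM) lay below the top erythroid sample (5855 CPM). HR.7 Ftl1 (2511 CPM) and HRO.9 Hmox1 (34.0 CPM) lay within the monocyte ranges (1006 to 3810 and 33.0 to 104 CPM). Fold changes between gates are from edgeR's quasi-likelihood fit with the hashtag sample as a block and Benjamini-Hochberg adjustment over 10080 genes, given as log2 ± standard error.

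**Figure D1:**
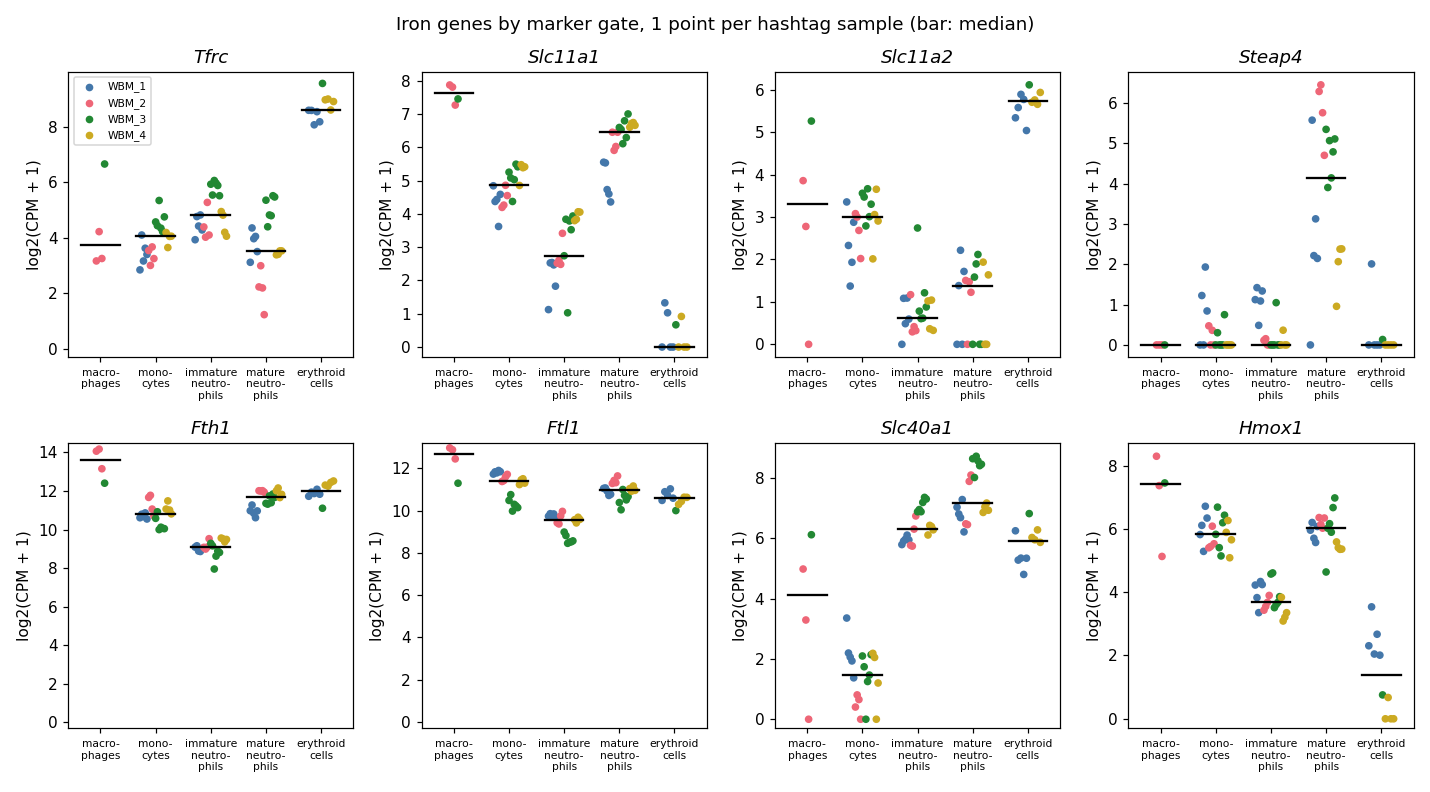
Level of each of the 8 genes, as log2(CPM + 1) on the y axis, in the 5 marker gates on the x axis. Each point is 1 hashtag sample with at least 20 cells of the gate, coloured by pool, and the bar is the median. Tfrc is highest in erythroid cells (267 to 752 CPM), Slc40a1 in mature neutrophils (73.2 to 421 CPM), and the highest ferritin values are in macrophages.

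Tfrc, on chr16:32608920-32632794 (plus strand), encodes the transferrin receptor. Its lowest, median and highest level in erythroid cells were 267, 385 and 752 CPM, and in immature neutrophils 14.2, 27.1 and 65.7 CPM. In mature neutrophils they were 1.34, 10.5 and 44.6 CPM and in monocytes 6.16, 15.5 and 39.5 CPM. The erythroid values did not overlap those of any other of these gates. Against monocytes, Tfrc was higher by 5.07 ± 0.14 in erythroid cells (edgeR adjusted p = 1.04e-38, 10 of 10 samples) and by 1.77 ± 0.12 in immature neutrophils (adjusted p = 1.48e-20, 19 of 19). It was lower in mature than in immature neutrophils in all 19 samples, by -1.01 ± 0.16 (adjusted p = 7.67e-08). The 4 macrophage sums were 7.95 (HRO.7), 17.6 (HRO.8), 8.51 (HRO.9) and 99.7 CPM (HR.7). The edgeR difference between macrophages and monocytes, 0.92 ± 0.35 with adjusted p = 0.0449, is not a firm one: macrophages were higher in 2 of 4 samples, and 8 of 10 alternatives lost the call. With at least 50 cells a sum, which leaves HRO.7 alone, it was -0.17 with adjusted p = 0.919. Without HRO.7 it was 1.51 with adjusted p = 0.00632. The highest sum, HR.7, is also the one with globin transcripts, whose part in the value was not tested.

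Slc11a2, on chr15:100387898-100425072 (minus strand), encodes the transporter DMT1, which carries iron out of the endosome. It was detected at 31.9 to 68.4 CPM in erythroid cells, with a median of 52.2 CPM. Monocytes had 1.59 to 11.7 CPM, and neutrophils of either stage no more than 5.69 CPM. The erythroid samples were thus all above the monocyte and neutrophil samples. The edgeR difference between erythroid cells and monocytes was 2.99 ± 0.20 (adjusted p = 1.75e-20, 10 of 10 samples). Macrophage sums held 22 UMIs in HRO.7 (13.5 CPM, 95% exact Poisson interval 8.43 to 20.4), 2 in HRO.8, none in HRO.9 and 6 in HR.7. Such intervals cover counting error only.

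Slc11a1, on chr1:74375195-74386062 (plus strand), encodes NRAMP1, the metal transporter of the phagosome membrane. It followed the phagocytes and was close to 0 in red cell precursors. Macrophage sums stood at 233 (HRO.7), 223 (HRO.8), 153 (HRO.9) and 174 CPM (HR.7). Mature neutrophils had 19.5, 86.5 and 127 CPM as lowest, median and highest value, monocytes 11.3, 27.9 and 44.0 CPM, immature neutrophils 1.04, 5.69 and 15.7 CPM, and erythroid cells at most 1.51 CPM. All macrophage values lay above the highest mature neutrophil value. Mature exceeded immature neutrophils in 19 of 19 samples, by 3.39 ± 0.14 (edgeR adjusted p = 5.47e-30). Macrophages exceeded monocytes by 3.30 ± 0.23 (adjusted p = 1.28e-18, 4 of 4 samples).

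Steap4, on chr5:7960457-7982213 (plus strand), encodes a metalloreductase that reduces ferric iron. It was largely a transcript of mature neutrophils: 0, 16.7 and 86.7 CPM were its lowest, median and highest values there. The means were 0.345 CPM in monocytes, 0.394 in immature neutrophils and 0.312 in erythroid cells. B lineage cells, a gate not used in the comparisons, held 26 UMIs in all, with a mean of 6.28 CPM over 16 samples and 27.9 CPM in HRO.5. No Steap4 UMI was counted in the macrophages of any sample, which in HRO.7 allows up to 1.83 CPM and in HRO.9 up to 25.5 CPM, by 3 counts of the sum. Mature exceeded immature neutrophils in 18 of 19 samples, by 6.66 ± 0.41 (edgeR adjusted p = 6.47e-22). Among mature neutrophils the level differed widely between pools, with 25.1 to 86.7 CPM in WBM_2, 14.0 to 39.8 in WBM_3, 0.943 to 4.22 in WBM_4 and 0 to 46.8 in WBM_1.

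Ferritin storage transcripts were present in every gate. Fth1, on chr19:9980598-9985098 (plus strand), encodes the heavy chain, which oxidises iron as it enters the shell. Ftl1, on chr7:45457944-45459884 (minus strand), encodes the light chain, which helps the iron core to form. Fth1 stood at 17094 (HRO.7), 18397 (HRO.8), 9086 (HRO.9) and 5408 CPM (HR.7) in macrophages. Its mean was 4255 ± 1107 CPM (SD, n = 10) in erythroid cells, 3149 ± 914 (n = 19) in mature neutrophils, 1865 ± 698 (n = 19) in monocytes and 553 ± 130 (n = 19) in immature neutrophils. Apart from the HR.7 sum, macrophages lay above all samples of the other gates. Ftl1 stood at 7994, 7519, 5572 and 2511 CPM in the same macrophage sums and averaged 2538 ± 965 CPM in monocytes, 2005 ± 513 in mature neutrophils, 1545 ± 305 in erythroid cells and 683 ± 216 in immature neutrophils. Macrophages exceeded monocytes for Fth1 by 2.58 ± 0.20 (edgeR adjusted p = 3.61e-16) and for Ftl1 by 1.27 ± 0.18 (adjusted p = 6.16e-08), in 4 of 4 samples each. Both chains were higher in mature than in immature neutrophils in 19 of 19 samples, Fth1 by 2.63 ± 0.13 and Ftl1 by 1.73 ± 0.10 (adjusted p = 1.91e-27 and 7.68e-23). In erythroid cells the chains parted: relative to monocytes Fth1 was higher in 10 of 10 samples (1.24 ± 0.15, adjusted p = 2.20e-11) and Ftl1 lower in 10 of 10 (-0.77 ± 0.13, adjusted p = 2.92e-07). Reads of the ferritin copy Ftl1-ps1 came to 0.791 to 1.89% of those of Ftl1 and could be split from it wrongly by the counting.

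The ratio of heavy to light chain UMIs puts this parting in 1 number that does not depend on how the libraries are scaled. Transcript length does not enter 3′ counts directly, but the 2 genes may be captured unequally, so only differences in the ratio are read. Its median was 2.37 in erythroid cells (2.07 to 4.04), 2.15 in macrophages (1.63 to 2.45), 1.62 in mature neutrophils (0.931 to 2.52), 0.885 in monocytes (0.408 to 1.28) and 0.787 in immature neutrophils (0.507 to 1.29). Erythroid cells and macrophages each lay wholly above monocytes and immature neutrophils. The ranges of erythroid cells, macrophages and mature neutrophils overlapped. Pool WBM_1 held the lowest values of monocytes and mature neutrophils, and WBM_4 the highest of erythroid cells.

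**Figure D2:**
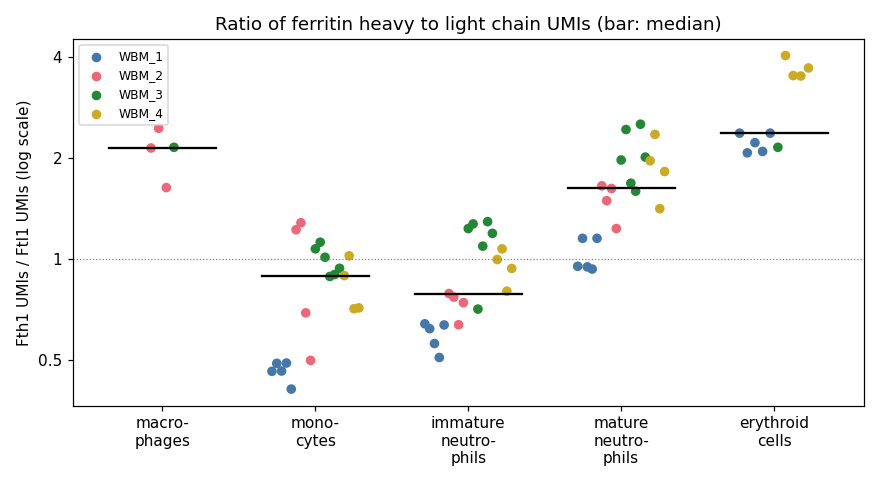
Ratio of Fth1 to Ftl1 UMIs (y axis, log scale) by marker gate (x axis), 1 point per hashtag sample coloured by pool, bar at the median. The 10 erythroid samples (2.07 to 4.04) lie above all monocyte (0.408 to 1.28) and immature neutrophil samples (0.507 to 1.29).

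Slc40a1, on chr1:45908068-45926523 (minus strand), encodes ferroportin, the iron exporter known from red-pulp and marrow macrophages and from erythroid cells. Here its highest levels were in neutrophils. The lowest, median and highest values were 73.2, 143 and 421 CPM in mature neutrophils, 52.5, 78.1 and 163 CPM in immature neutrophils, 26.9, 59.1 and 112 CPM in erythroid cells and 0, 1.76 and 9.24 CPM in monocytes. Every neutrophil and erythroid sample thus lay above every monocyte sample. Slc40a1 exceeded monocytes by 7.69 ± 0.21 in mature neutrophils (edgeR adjusted p = 2.67e-40), by 6.48 ± 0.20 in immature neutrophils (adjusted p = 1.09e-36) and by 5.44 ± 0.25 in erythroid cells (adjusted p = 1.67e-28), in 19 of 19, 19 of 19 and 10 of 10 samples. It was higher in mature than in immature neutrophils in 19 of 19 samples (1.21 ± 0.13, adjusted p = 1.12e-12). HRO.7 and HRO.9 had no gated erythroid cell, and their mature neutrophils stood at 88.3 and 236 CPM. Their pool WBM_2 did hold gated erythroid cells (2 in HRO.8 and 7 in WTO.4). Any part of erythroid transcripts in the neutrophil values was not tested. In macrophages 50 UMIs were counted in HRO.7 (30.6 CPM, interval 22.7 to 40.3), 3 in HRO.8 (8.79 CPM, 1.81 to 25.7), none in HRO.9 (up to 25.5 CPM allowed) and 11 in HR.7 (68.5 CPM, 34.2 to 123), whose globin level is given above. Macrophages passed the test against monocytes (4.74 ± 0.45, adjusted p = 3.98e-13), and the difference between erythroid cells and macrophages did not (0.70 ± 0.38, adjusted p = 0.104). Scaled by library size alone, the latter difference was 0.85 ± 0.37 (edgeR adjusted p = 0.0403), so its call depends on the scaling. Only HR.7 had both erythroid and macrophage sums, and the other samples are linked in that comparison through other gates.

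Hmox1, on chr8:75093621-75100589 (plus strand), encodes heme oxygenase 1, which frees iron from heme. Macrophages had 313 (HRO.7), 164 (HRO.8), 34.0 (HRO.9, 4 UMIs) and 174 CPM (HR.7), so that HRO.9 lay within the range of the monocytes. Monocytes had 33.0, 55.8 and 104 CPM as lowest, median and highest value and mature neutrophils 23.9, 63.9 and 125 CPM. Immature neutrophils had 7.51, 11.8 and 23.4 CPM, and erythroid cells 0, 1.86 and 10.6 CPM. Hmox1 was higher in macrophages than in monocytes by 2.01 ± 0.27 (edgeR adjusted p = 1.31e-08, 3 of 4 samples) and higher in mature than in immature neutrophils by 2.49 ± 0.16 (adjusted p = 6.15e-21, 19 of 19). It was lower in erythroid cells than in monocytes by -5.29 ± 0.34 (adjusted p = 7.60e-22, 10 of 10).

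Counted over the members, 6 of 8 were higher and none lower in macrophages than in monocytes, beside 11.8% of all genes higher and 12.6% lower. The 6 include Tfrc, whose call in macrophages is not firm, as given above. In mature neutrophils 7 were higher and 1 lower than in monocytes (36.4% and 46.9% of all genes). Against immature neutrophils the counts were likewise 7 and 1 (31.9% and 40.0%). These 7 include Slc11a2, with 19 UMIs in all mature neutrophil sums and higher in 11 of 19 samples. In erythroid cells 4 were higher and 3 lower than in monocytes (40.6% and 36.8%), and 2 higher and 4 lower than in macrophages (31.7% and 30.4%). Only HR.7 had both erythroid and macrophage sums. In immature neutrophils 2 were higher and 5 lower than in monocytes (38.6% and 38.5%). The members' median was 1.64 for macrophages over monocytes, where that of all genes was -0.02, and 2.11 for mature over immature neutrophils, where that of all genes was -0.12. Scaling matters for mature neutrophils against monocytes: library size in place of TMM moved the median of all genes by -0.92, from -0.28 to -1.20. Under it Tfrc (0.76 to -0.13) and Ftl1 (0.62 to -0.25) changed sign, and Hmox1 went from 1.02 to 0.12 (adjusted p = 0.449). The CPM values likewise put Ftl1 higher in mature neutrophils in 5 of 19 samples only. The same change of scaling moved all genes by -0.73 for immature neutrophils against monocytes and by -0.19 to 0.11 in the other 4 comparisons.

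Likeness across the 71 sums of 19 samples was measured by Pearson's correlation of log2 CPM with each gene of a mean of at least 20 CPM, as a description of sums that share libraries and depth. Tfrc was most like Smim1 (0.91), Hemgn (0.90) and Gata1 (0.89). Slc11a1 and Hmox1 each had Lrrc25 among their nearest (0.93 and 0.94), and the 2 were correlated at 0.86. Slc15a3 (0.94) and Gabarap (0.93) were the others nearest to Slc11a1, and Tpd52 and Tgfbi (0.93 each) to Hmox1. Slc40a1 was nearest to Tmem40 (0.89), Slc2a3 and St3gal5 (0.85 each), and Steap4 to Clec4d (0.82), Arg2 and Nlrp12 (0.81 each). Slc11a2 was nearest to Eef1g (0.89), Ifrd2 (0.88) and Gnl3 (0.87). Fth1 was nearest to Zfp36l1 (0.83) and Tspan13 (0.82), Ftl1 to Atp6v1f (0.82), and the 2 chains were each other's close neighbours (0.79).

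A further list of 49 iron and heme iron genes, 48 of them in the files, places the members in their pathway. In macrophages against monocytes 13 of the 32 tested were higher and 5 lower, where 11.8% and 12.6% of all genes were. Blvrb, a biliverdin and flavin reductase (2.59 ± 0.30, edgeR adjusted p = 3.57e-10), Slc48a1, a heme transporter of the phagolysosome (1.54 ± 0.24, adjusted p = 6.53e-07), and the mitochondrial iron importer Slc25a37 (1.41 ± 0.31, adjusted p = 0.000285) were higher. Haptoglobin (Hp, -2.07 ± 0.37), which binds hemoglobin, and the siderophore-binding lipocalin Lcn2 (61.4 ± 40.4 against 307 ± 251 CPM) were lower. In erythroid cells against monocytes 13 were higher and 12 lower, shares close to the 40.6% and 36.8% of all genes. Blvrb stood at 1164 ± 290 against 63.1 ± 44.0 CPM and the mitochondrial transporter Abcb10 at 155 ± 65.6 against 12.5 ± 6.33 CPM, each higher in 10 of 10 samples. Transferrin itself (Trf) and the hemopexin receptor Lrp1 were lower in all 10. Against macrophages 11 were higher and 13 lower in erythroid cells, where 31.7% and 30.4% of all genes were. Abcb10 (4.62 ± 0.36) was higher and the heme-sensing repressor Bach1 (-2.31 ± 0.21) lower. In that comparison only HR.7 had both sums.

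In mature neutrophils 11 of the 32 listed genes were higher and 14 lower than in monocytes (36.4% and 46.9% of all genes), and 10 were higher and 10 lower than in immature neutrophils (31.9% and 40.0%). These counts depend on the scaling. With library size in place of TMM they were 7 and 22 against monocytes, beside 20.1% and 68.4% of all genes. Against immature neutrophils they were then 8 and 13, beside 26.7% and 47.0% of all genes. Fbxl5, the iron-sensing ubiquitin ligase subunit that removes iron regulatory protein 2, stood at 629 ± 316 CPM in mature neutrophils, 82.6 ± 32.0 in immature neutrophils and 87.4 ± 36.0 in monocytes. It was higher in the mature gate than in either other gate in 19 of 19 samples (3.01 ± 0.12 and 3.66 ± 0.12). Slc25a37 was higher in mature than in immature neutrophils in 18 of 19 samples (1.59 ± 0.12), and Bach1 in 19 of 19 (1.71 ± 0.09). In immature neutrophils against monocytes 12 were higher and 13 lower, near the 38.6% and 38.5% of all genes. With library size in place of TMM the counts were 5 and 23, beside 14.5% and 71.0% of all genes. Lcn2 stood there at 13662 ± 3534 against 307 ± 251 CPM, and Ncoa4, the receptor that delivers ferritin for breakdown, at 162 ± 44.9 against 36.1 ± 8.27 CPM. Cisd1, a mitochondrial iron-sulfur protein, was lower in all 19 samples (-3.22 ± 0.11).

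Between hashtag groups few members passed, and the calls were all in monocytes. Macrophages allowed no group test, and a member that did not pass can still differ. Group comparisons were fitted with the pool as a term, since the pools hold different groups. In HRO against WTO monocytes 1 of 6 tested members passed (Fth1), where 7.44% of all genes did. In HRO against HRY monocytes 2 of 6 passed (Fth1 and Hmox1), beside 3.85% of all genes. None passed in HRY against WTY (0%), in WTO against WTY (0%) or in chronic against HRO monocytes (0.0105%). At an unadjusted p under 0.05 edgeR gave 524, 388 and 1109 genes in those 3 comparisons. Steap4 and Slc40a1 were too low to be tested in monocytes.

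Fth1 was higher in HRO than in WTO monocytes. The 6 HRO samples stood at 3245 (HRO.7), 3497 (HRO.8), 2134 (HRO.9), 1937 (HRO.10), 2136 (HRO.11) and 2864 CPM (HRO.12). WTO samples stood at 1860 (WTO.3), 1667 (WTO.4), 2060 (WTO.5) and 1796 CPM (WTO.6). HRO.10 lay below the highest WTO sample, and the other 5 HRO samples above it. The edgeR difference was 0.64 ± 0.15 (adjusted p = 0.0140). Within pools the difference of mean log2 CPM was 0.80 in WBM_2 (3 against 1 sample) and 0.36 in WBM_4 (2 against 2). The call was lost without the pool term (0.47, adjusted p = 0.577), without WTO.4 (0.49, adjusted p = 0.195) and without pool WBM_1 (0.63, adjusted p = 0.072).

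Against HRY the same HRO monocytes were higher in Fth1 without overlap, HRY standing at 1627 (HRY.4), 1020 (HRY.5) and 1112 CPM (HRY.6). The edgeR difference was 0.88 ± 0.20 (adjusted p = 0.0175), and within WBM_3 HRO.10 exceeded the mean of the 2 HRY samples by 0.86. Fth1 in WTO and WTY monocytes did not overlap either (1667 to 2060 against 1055 to 1493 CPM), and that difference did not pass (0.32 ± 0.21). The share of all genes without overlap was not counted. The comparisons against WTO and HRY share the HRO samples. The call against HRY was lost without the pool term (1.06, adjusted p = 0.0863), without HRO.10, the only HRO sample that shares a pool with HRY (0.83, adjusted p = 0.573), without any of HRY.4, HRY.5 and HRY.6 (0.84 to 0.93, adjusted p = 0.0531 to 0.071) and without pool WBM_1 (0.96, adjusted p = 0.0966). Ftl1 did not pass in any group comparison, with 0.04 ± 0.11 for HRO against WTO (adjusted p = 0.916) and 0.44 ± 0.15 for HRO against HRY (adjusted p = 0.114). The ratio of the chains was 0.689 to 1.28 in HRO and 0.488 to 0.713 in WTO monocytes. The difference in mean log2 ratio was 0.78 (2-sided exact permutation p = 0.0190, adjusted p = 0.202 over 17 comparisons). None of the 17 passed after adjustment, which sample number fixed in advance for some. The smallest p the permutation could give was 0.100 for HRY against WTY in monocytes and both neutrophil gates. For erythroid cells it was 0.100 (HRO against WTO) and 0.333 (chronic against HRO). Chronic against HRO reached its smallest possible permutation p, 0.0357, in monocytes and mature neutrophils. Unlike the edgeR fits, the permutation took no account of the pool. Within pools the HRO minus WTO difference was 1.04 in WBM_2 (3 against 1 sample) and 0.42 in WBM_4 (2 against 2).

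Hmox1 was also higher in HRO than in HRY monocytes. HRY stood at 38.1 (HRY.4), 41.4 (HRY.5) and 34.4 CPM (HRY.6), a narrow range. HRO stood at 41.3 (HRO.7), 42.5 (HRO.8), 66.9 (HRO.9), 102 (HRO.10), 58.3 (HRO.11) and 75.9 CPM (HRO.12), with HRO.7 just under the highest HRY sample. The edgeR difference was 1.64 ± 0.25 (adjusted p = 0.00161), and within WBM_3 HRO.10 exceeded the HRY samples by 1.42. It was lost without the pool term (0.82, adjusted p = 0.205) and without HRO.10 (1.90, adjusted p = 0.26).

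WTY monocytes stood at 80.1 (WTY.3), 72.2 (WTY.4) and 85.3 CPM (WTY.5) of Hmox1, all above the HRY samples. This difference did not pass the adjustment over all genes (-1.06 ± 0.23, unadjusted p = 0.000277, edgeR adjusted p = 0.650), and it was -1.06 within WBM_1 and -1.04 within WBM_3. In HRO against WTO monocytes it was 0.41 ± 0.18 (adjusted p = 0.170). The difference between these 2 differences was tested as a contrast added after the data were seen, and 81 of 9553 genes passed (0.848%). Hmox1 was among them at 1.47 ± 0.29 (adjusted p = 0.0238), the other 5 members tested were not, and 8 of its 26 alternatives lost the call.

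**Figure D3:**
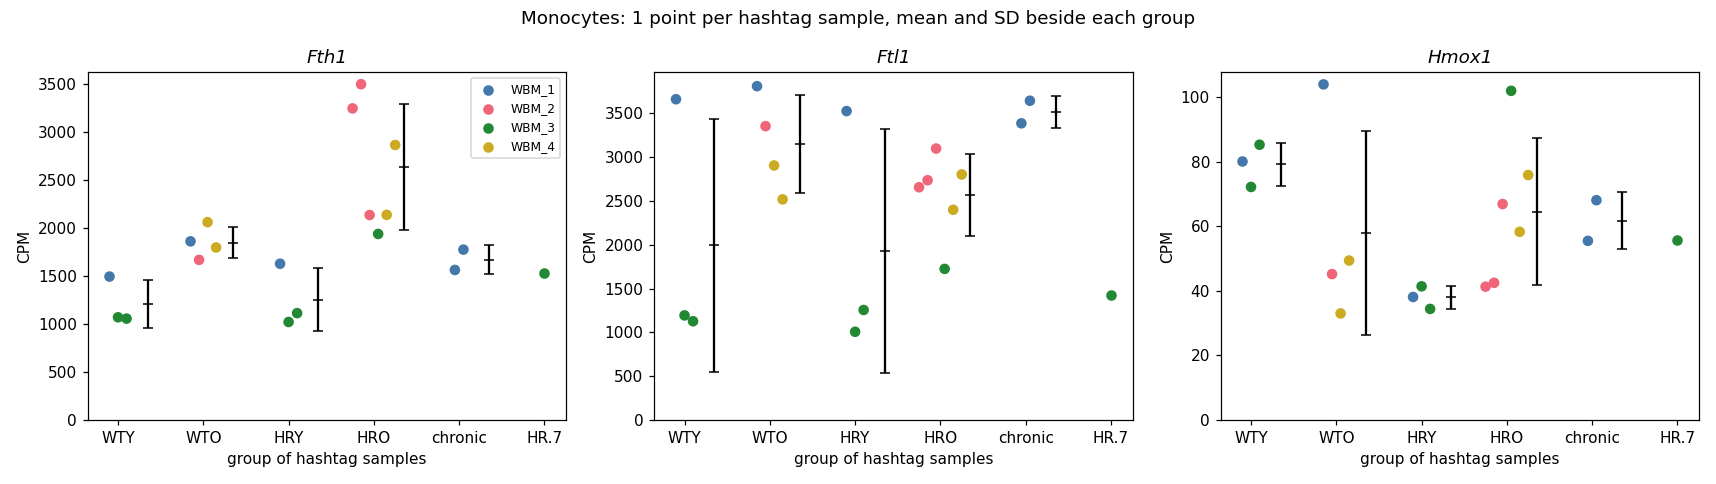
Level in CPM (y axis) of Fth1, Ftl1 and Hmox1 in monocytes by hashtag group (x axis), 1 point per hashtag sample coloured by pool, with the group mean and SD beside the points. HRY samples of Hmox1 lie between 34.4 and 41.4 CPM and WTY samples between 72.2 and 85.3 CPM, and the Ftl1 samples of pool WBM_3 are the lowest.

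**Figure D4:**
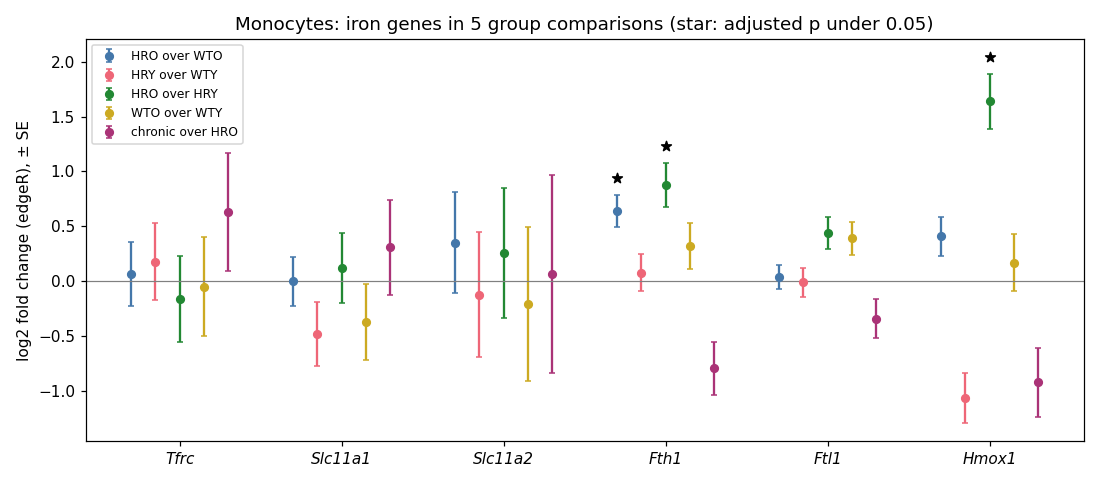
Log2 fold change with its standard error (y axis) of the 6 members tested in monocytes (x axis) in 5 group comparisons, from edgeR with a pool term, with a star where the adjusted p is under 0.05. The 3 starred values are Fth1 in HRO over WTO (0.64) and Fth1 and Hmox1 in HRO over HRY (0.88 and 1.64).

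Other measures moved with these monocyte groups, and their part in the results was not tested. The median UMI count per monocyte was 7341 to 11212 in HRO, 2884.5 to 7530 in WTO, 2937 to 4739 in HRY and 3438.5 to 4099 in WTY samples. Macrophage gate markers summed to 49.9 to 167 CPM in HRO, 20.8 to 94.1 in WTO and 46.0 to 61.2 in HRY monocytes. Macrophage markers not used to gate went the other way, with 195 to 572 CPM in HRO, 485 to 1092 in WTO and 349 to 1051 in HRY. Neutrophil gate markers ranged from 2744 to 12510 CPM in HRO, 1089 to 11494 in WTO and 1522 to 15398 in HRY monocytes. Within each pool that holds both groups they were higher in HRO: 2744 to 5039 against 1089 CPM in WTO in WBM_2, 10234 and 12510 against 5697 and 5743 in WTO in WBM_4, and 4834 against 1522 and 1527 in HRY in WBM_3.

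In the pathway list, 4 of 29 tested genes rose and none fell in HRO against WTO monocytes, and 3 of 29 rose and none fell against HRY, beside 7.44% and 3.85% of all genes called in either direction. Fbxl5 rose in both, from 51.6 ± 7.37 CPM in WTO and 63.7 ± 5.17 in HRY to 116 ± 37.1 in HRO (1.10 ± 0.17 and 1.34 ± 0.23, edgeR adjusted p = 0.00142 and 0.00359). Lcn2 (2.21 ± 0.37 and 2.45 ± 0.50) and Hp (0.95 ± 0.16 and 1.05 ± 0.22) also rose in both. All 3 stood higher in mature neutrophils than in monocytes in 19 of 19 samples (Fbxl5 at 629 against 87.4 CPM), and neutrophil gate markers were higher in the HRO monocytes of each shared pool, as given above. Their part in these values was not tested. The fourth gene in HRO against WTO was the metal transporter Slc39a14, at a mean of 5.26 CPM in HRO and 0.0849 in WTO. It lies below the level set for naming and was chosen after its values were seen. None of the list passed in the other 3 monocyte comparisons.

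No member passed in neutrophils. In immature neutrophils the share of all genes called was 1.85% for HRO against WTO, 0.962% for HRO against HRY, and 0% for HRY against WTY, WTO against WTY and chronic against HRO, and none of the 6 tested members was among them. In the last 3 edgeR gave 1213, 538 and 590 genes at an unadjusted p under 0.05. In mature neutrophils the shares were 1.59%, 1.64%, 0.0173%, 0% and 0% in the same order, and none of the 7 tested members passed. In the last 3 edgeR gave 327, 427 and 469 genes at an unadjusted p under 0.05. Of the members, 0 to 2 were under it in each neutrophil comparison, and DESeq2 called 1 (Ftl1 in HRO against HRY mature neutrophils). The nearest were Hmox1 in HRO against HRY immature neutrophils (1.13 ± 0.29, edgeR adjusted p = 0.0717) and Slc40a1 in HRO against WTO immature neutrophils (-0.37 ± 0.13, adjusted p = 0.157). Hmox1 in mature neutrophils of HRY against WTY was -0.71 ± 0.21 (adjusted p = 0.529), with 60.1 ± 9.89 against 97.4 ± 29.3 CPM. Of the pathway list, Fbxl5 rose in HRO against HRY immature neutrophils (93.3 against 62.6 CPM, adjusted p = 0.00834) and Lcn2 in the mature ones (1.17 ± 0.22, adjusted p = 0.00900), as the only 1 of 27 and 1 of 19 tested, beside the 0.962% and 1.64% above.

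Levels of the members also differed between pools, which hold different groups. Slc40a1 in mature neutrophils stood at 258 to 421 CPM in WBM_3, with its WTY, HRY, HRO.10 and HR.7 samples, and at 73.2 to 273 CPM in the other 3 pools. Tfrc in immature neutrophils stood at 44.6 to 65.7 CPM in WBM_3 and 14.2 to 37.6 elsewhere, with no overlap. Slc11a1 in mature neutrophils was lowest in WBM_1, at 19.5 to 45.9 CPM against 59.0 to 127 in the others. WBM_3 monocytes had the lowest Ftl1, 1006 to 1724 CPM against 2399 to 3810.

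**Figure D5:**
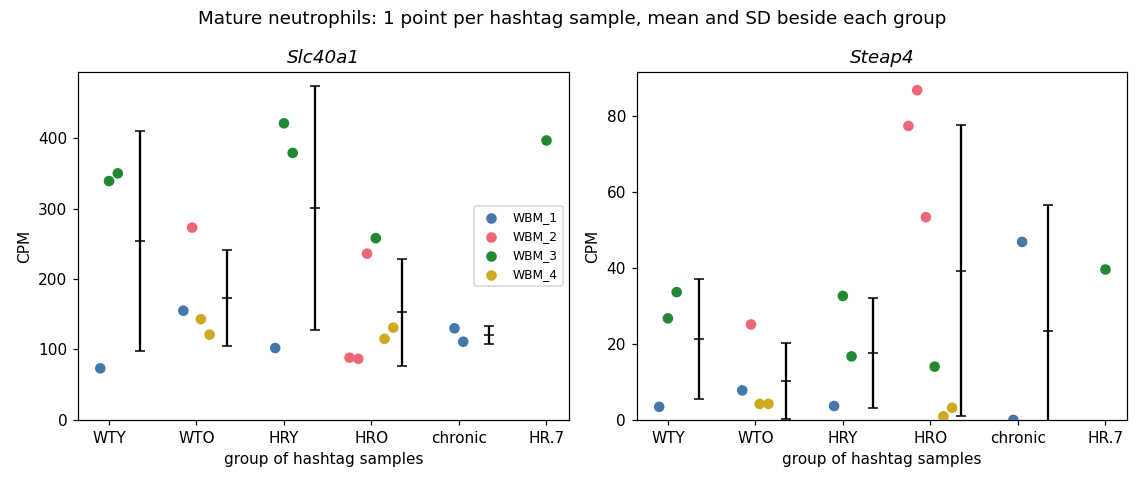
Level in CPM (y axis) of Slc40a1 and Steap4 in mature neutrophils by hashtag group (x axis), 1 point per hashtag sample coloured by pool, with the group mean and SD beside the points (SD bars are cut off at 0). Samples of pool WBM_3 have the highest Slc40a1 (258 to 421 CPM, apart from 1 WBM_2 sample at 273), and 3 WBM_2 samples the highest Steap4.

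Erythroid cells could be compared between HRO (HRO.11 and HRO.12) and WTO (3 samples), and between the chronic pair and HRO. None of the 5 tested members passed in either, beside 1.34% and 0.0359% of all genes. Tfrc stood at 499 and 509 CPM in HRO and at 371 (WTO.3), 387 (WTO.5) and 478 CPM (WTO.6) in WTO, without overlap (0.22 ± 0.12, edgeR adjusted p = 0.574). Ftl1 did not overlap either, at 1251 and 1382 CPM in HRO against 1579 to 2084 in WTO (-0.27 ± 0.10, adjusted p = 0.349). The share of all genes without overlap was not counted. Fth1 was at 5049 and 4871 CPM in HRO and 4346, 5559 and 5855 in WTO (-0.20 ± 0.07, adjusted p = 0.202). Of the pathway list Hp alone fell, to 14.2 ± 4.07 from 77.8 ± 18.7 CPM (-2.28 ± 0.26, adjusted p = 0.000450, 1 of 28 tested). Neutrophil gate markers were also lower in those HRO erythroid sums, at 1607 to 3764 against 5883 to 15892 CPM, and their part in the Hp value was not tested.

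The chronic samples HRO.5 and HRO.6 were all in pool WBM_1, which holds no other HRO sample, so the pool term links them to HRO only through other groups. No member passed against HRO in monocytes, neutrophils or erythroid cells. Fth1 in monocytes stood at 1562 (HRO.5) and 1774 CPM (HRO.6), below all 6 HRO samples (-0.79 ± 0.24, edgeR adjusted p = 0.220), but within the 1493 to 1860 CPM of the other 3 WBM_1 samples. Slc11a1 in mature neutrophils was 45.9 and 45.2 CPM, above the 19.5 to 25.5 CPM of the other WBM_1 samples and below all HRO samples. In mature neutrophils Fth1 (2011 and 2469 against 1565 to 1997 CPM) and Ftl1 (2118 and 2147 against 1681 to 1938) were also above the other WBM_1 samples. So were Fth1 in immature neutrophils (543 and 570 against 464 to 515), Slc40a1 in monocytes (3.58 and 9.24 against 1.59 to 3.17) and Tfrc in erythroid cells (383 and 384 against 267 to 371). The Slc40a1 values in monocytes rest on 3 (HRO.5) and 8 UMIs (HRO.6), against 1 or 2 UMIs in each of the other WBM_1 samples. Slc40a1 in immature neutrophils was below them (54.4 and 59.1 against 60.7 to 67.9). These sets of 2 and 3 samples hold several groups and were not tested. The share of all genes that stood apart in the same way was not counted, so the list is not a result about these members. In the other sets the values overlapped. Steap4 in mature neutrophils was carried by 1 sample: HRO.6 had 29 UMIs (46.8 CPM, interval 31.3 to 67.2) and HRO.5 none of 130779, which allows up to 22.9 CPM. The chronic mean was 23.4 ± 33.1 CPM against 39.2 ± 38.2 in HRO, while the fitted difference, with the pool term, had the other sign (3.43 ± 1.18, edgeR adjusted p = 0.480) and became -4.64 without HRO.6.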

How the data were processed

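The deposited values were UMI counts, whole numbers per gene and barcode, that the authors made with bcl2fastq, Cell Ranger and Seurat on the mouse build mm10, per the submitters' processing notes (Cell Ranger 3.0.0 for WBM_1 and 3.1.0 for the others, per the file headers). Hashtag counts were deposited beside them, and the series text names HTODemux for demultiplexing. The members and the pathway and marker lists were chosen with earlier results of these data known.

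From 78716 barcodes with hashtag counts, Seurat 5.3.0 HTODemux (positive quantile 0.99, counts centred across cells) left 57983 with 1 hashtag, which was the only removal of doublets. After the shared barcodes (57964 left), a minimum of 300 genes (53426) and a limit of 10% mitochondrial counts, 43062 cells remained. A gate marker was positive with a count whose Poisson tail against the library's average share was under 0.01. A gate needed 3 positive markers and a lead of 2 over the next class, except that macrophages needed as many as monocyte markers. This rule was set after marker detection was seen and without looking at the members. Ahsp, a planned erythroid marker, was not analysed here.

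Counts were summed for each hashtag sample and gate with at least 20 cells and tested with edgeR 4.0.16 (R 4.3.3, limma 3.58.1): TMM, filterByExpr, quasi-likelihood test, Benjamini-Hochberg adjustment over all genes tested at 0.05. Group comparisons had group and pool as terms, and gate comparisons gate and hashtag sample. Standard errors are the log2 fold change over the square root of F. The step was tested on simulated counts. Macrophages allowed no group test. Named besides the members were, per comparison, up to 6 listed genes past the threshold with the largest change and a mean of at least 20 CPM, and for each member the 3 most correlated genes (prior count 2). Some listed genes that met this rule are not reported here. Alternatives were no pool term, DESeq2 1.42.0, library size alone, no filter, hashtag counts centred within cells, a stricter gate, a limit of 20% mitochondrial counts, at least 50 cells, and samples left out. Leaving out WBM_1 and the contrast between the 2 group differences were added after the data were seen.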

Additional observations from a re-analysis of the deposited data

Results flagged for a closer look

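Within groups of 4 to 6 hashtag samples, 48 sets of values of a member in a gate were checked for a sample far from the others, and 8 held one. Chance gives about 1 in 20, a rate that does not hold for counts near 0. In WTO, sample WTO.3 was apart for Steap4 in monocytes (2.82 CPM, the other 3 at 0) and in immature neutrophils (1.13 CPM, the others at 0), where any UMI beside zeros stands apart. It was also apart for Tfrc in immature neutrophils (27.2 CPM, the next at 17.3). WTO.4 was apart in mature neutrophils for Steap4 (25.1 CPM, the next at 7.75) and for Hmox1 (80.2 CPM, the next at 46.5). It is the sample whose removal ended the Fth1 call of HRO against WTO monocytes. In HRO, sample HRO.10 was apart for Hmox1 in immature neutrophils (23.4 CPM, the next at 13.3), for Tfrc in mature neutrophils (20 CPM, the next at 9.56) and for Fth1 in mature neutrophils (2548 CPM, the next at 4087). WTO.3 is the only WTO sample of pool WBM_1, WTO.4 the only one of WBM_2 and HRO.10 the only HRO sample of WBM_3, so that sample and pool cannot be told apart here.

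Hmox1 in monocytes differed between the comparisons of HRO with WTO and of HRY with WTY, by 1.47 ± 0.29 on the log2 scale, with an edgeR adjusted p of 0.0238. Over 26 alternatives the value stayed between 1.23 and 1.63, and the adjusted p ranged from 3.40e-06 to 0.659. The call was lost without the pool term (adjusted p = 0.659), without pool WBM_1 (0.169), with the stricter gate (0.076), and without WTO.4 (0.0616), HRY.4 (0.0646), HRY.6 (0.112), WTY.3 (0.124) or WTY.5 (0.0874).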

How the results depend on the processing

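Over 23 comparisons, 331 of 351 alternatives gave a count of members within 1.5 times the reported one. In most group comparisons the reported count was 0, and an alternative with 0 was taken as within it, which says nothing of the calls made. In monocytes Fth1 lost its call in 3 of 20 alternatives for HRO over WTO and in 6 of 19 for HRO over HRY. Hmox1 lost it in 2 of 19 for HRO over HRY. Without the pool term no member passed in HRO over WTO or HRO over HRY monocytes (0 in each), and without WBM_1 0 passed in the former. Genes called in HRO over WTO monocytes then numbered 118 and 368, against 711. Leaving out HRO.7 and HRO.8 together gave 2 members in HRO over WTO monocytes (Hmox1 added, 0.57, edgeR adjusted p = 0.0259) and 1 in HRO over HRY immature neutrophils (Hmox1). With no filter on low counts 1 member passed in HRY over WTY monocytes (Hmox1, adjusted p = 0.000418), chronic over HRO monocytes (Fth1) and chronic over HRO mature neutrophils (Steap4), and 2 in HRO over WTO (Tfrc, Slc40a1) and HRO over HRY (Fth1, Hmox1) immature neutrophils. DESeq2 and library size alone each gave 1 in HRO over HRY mature neutrophils (Ftl1). The share of all genes called is not given here for these 2 settings, for no filter, or without HRO.7 and HRO.8. Those counts are therefore not a result about the members. Leaving out 1 sample gave 0 to 1 members in HRO over WTO monocytes, 0 to 2 in HRO over HRY monocytes, and 0 to 1 in chronic over HRO monocytes, HRO over HRY immature neutrophils and HRO over WTO mature neutrophils, where HRO.9 was the sample in all 3. In HRO over WTO and HRO over HRY monocytes the genes called then ranged from 118 without WTO.4 to 1634 without HRO.9, and from 1 without HRO.10 to 828 without HRO.9. Signs turned for Steap4 in chronic over HRO mature neutrophils (-4.64 without HRO.6 and 3.92 without HRO.5), Tfrc in macrophages over monocytes (-0.17 with 50 cells), and Tfrc (-0.13) and Ftl1 (-0.25) in mature neutrophils over monocytes with library size alone. The cause was not tested. Erythroid group comparisons had no value with 50 cells. No paired analysis was possible because nothing ties a hashtag number in one group to the same number in another; gate comparisons kept the hashtag sample as a replicate block.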

Other observations

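The gates set up to keep other cells apart show where the members stand in the rest of the marrow, as levels with no test. Progenitors (18 samples with at least 20 cells) had Tfrc at 50.2, 69.8 and 213 CPM as lowest, median and highest value and Slc40a1 at 13.7, 32.1 and 62.2 CPM, with a median Hmox1 of 1.97 CPM and Slc11a1 at no more than 4.17 CPM. Cells of the B lineage (16 samples) had Tfrc at 25.5, 63.5 and 194 CPM and Slc40a1 at 0, 6.70 and 16.7 CPM. T or NK cells (13 samples) had Tfrc at 0, 35.6 and 56.1 CPM. The median of Fth1 was 906 CPM in progenitors, 1212 in the B lineage and 998 in T or NK cells, and that of Ftl1 was 1161, 677 and 614 CPM.

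HR.7, a hashtag sample of pool WBM_3 with no group, held 637 of the 1108 gated erythroid cells. Its erythroid sum had the highest Tfrc (752 CPM against 267 to 509 in the other 9 samples), Slc11a2 (68.4 CPM) and Slc40a1 (112 CPM), and the lowest Fth1 (2199 CPM) and Ftl1 (1022 CPM). HR.AE, of pool WBM_2, gave 1401 kept cells, none of them in the macrophage or erythroid gate and 3 in the monocyte gate, so it entered no sum.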
